A study of Homo sapiens with 24 samples.

Results

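HaCaT cells, an immortal keratinocyte line derived from human skin, were compared after 24 h with AMP-18 at 2 µg/ml and after 24 h without it, with 3 Illumina HumanHT-12 v4 arrays in each group. All of these cultures had first been starved in medium with 1% FBS, so the untreated cells carried the starvation as well. The other arrays of the study were HaCaT cells at 2 h and SCC-61 head and neck cancer cells at 2 h and 24 h, each with and without AMP-18, 24 arrays in all. The sources used here do not say whether the 3 samples of a group were separate cultures. The p-values therefore measure only the spread between samples within groups, which was pooled over all 24 arrays. Of 47323 probes, 18219 were described, namely those whose detection p stayed below 0.05 throughout the AMP-18 group or throughout the untreated group (3 arrays each). Both groups detected 16203 of them on all arrays, 419 were detected throughout in the AMP-18 group alone and 1597 throughout in the untreated group alone. A single gene symbol was attached to 14322 of the probes, and they stood for 10776 of the 20046 genes with a probe. Where a gene had several probes, the one with the highest mean over the 24 arrays is given.

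AMP-18, also called gastrokine 1, is a protein that surface cells of the stomach antrum secrete, and it is known as a factor that acts on epithelial growth and barrier function. HaCaT cells keep the basal keratins and many adhesion proteins of keratinocytes. All 17 keratinocyte markers with a probe were detected on all 6 arrays, and their summed intensity was 33643 to 35513 with AMP-18 and 32638 to 34923 without. Of 10 fibroblast markers 3 were detected on all 6 arrays, of 6 endothelial markers 2, of 8 leukocyte markers 2 and of 5 melanocyte markers 2. Those detected were COL1A1, LUM and DCN (fibroblast), CDH5 and VWF (endothelial), CD14 and CD68 (leukocyte) and PMEL and MITF (melanocyte). Detected on none of the 6 arrays were 6 fibroblast, 4 endothelial, 4 leukocyte and 3 melanocyte markers, among them PDGFRB, PECAM1, PTPRC and MLANA. Each array detected between 18767 and 20705 probes, the lowest number belonging to 1 AMP-18 array. A probe for ribosomal RNA (RNA28SN5) read 9.62, 8.90 and 10.10 on the AMP-18 arrays, against 8.84, 8.82 and 8.20 on the untreated arrays. That probe was not called (log2 fold change 0.92, standard error 0.42, adjusted p = 0.268), and its part in the results was not tested. All levels below are the deposited log2 intensities, and a log2 fold change is the AMP-18 mean minus the untreated mean.

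After 24 h with AMP-18, HaCaT cells had many small differences from untreated cells. Some genes of cholesterol synthesis (8 of 19 tested) and of acetyl-CoA supply were higher. Some genes were lower on the lists of DNA replication (15 of 44), amino acid response and tRNA charging (9 of 35), and MYC targets and ribosome biogenesis (5 of 37). Of the 18219 probes, 379 (2.08%) passed the test in limma with an adjusted p under 0.05, which is what "called" means here, 150 of them higher and 229 lower with AMP-18. Among genes, 261 of 10776 were called (2.42%), 88 higher (0.817%) and 173 lower (1.61%). These shares are the background for the counts of every gene list below. The median size of a called change was 0.33 on the log2 scale, a 1.26-fold difference, and 20 called probes differed more than 1.5-fold. With AMP-18, all 3 arrays lay above all 3 untreated arrays for 7.07% of the genes and below them for 11.1%, whether called or not. The spread in this test was estimated from all 24 arrays. With the spread taken from the 6 arrays alone, 11 probes were called, for MVD, MSMO1, ACSS2, ACLY, IDI1 and TSC22D3, which were higher, and for ASNS, MCM6 and FST, which were lower. The probes of MSMO1 and TSC22D3 among them were second probes that did not pass with all 24 arrays in the fit (adjusted p = 0.0623 and 0.0715). Leaving out 1 array at a time moved the count between 105 (without untreated replicate 2) and 561 (without AMP-18 replicate 2), and 47 genes were called each time, 12 higher and 35 lower. Of 132 named called genes, 36 were called in every such fit, and losses are not stated for each of the others.

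**Figure D1:**
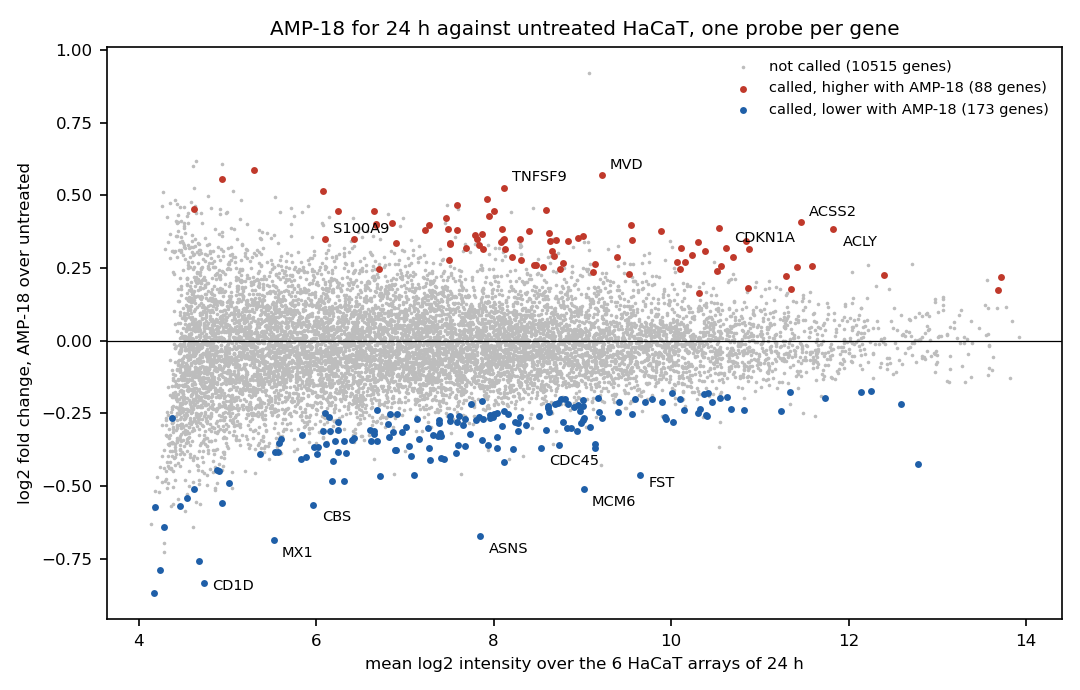
Log2 fold change of each of 10776 genes (AMP-18 over untreated HaCaT cells, 24 h) against its mean log2 intensity over the 6 arrays, with called genes in red (88 higher) and blue (173 lower). Most called changes are smaller than 0.5 in size, and the named genes MVD, ACSS2 and ACLY lie above 0 while ASNS, MX1, CD1D and MCM6 lie below it.

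Cholesterol is built from acetyl-CoA through mevalonate, isoprenoids and squalene. The genes of this route are known to be switched on together by the SREBP factors, which bind sterol elements beside CCAAT boxes that hold NF-Y. Promoters of a pair of these genes are shown because they carry several CCAAT boxes each. Each runs from 250 bases before to 50 bases after the RefSeq start site (GRCh38.p14), 5′ to 3′ on the gene's strand, with CCAAT or its reverse complement ATTGG in capitals. MVD lies on the minus strand at chr16:88663042-88663341 and MSMO1 on the plus strand at chr4:165327419-165327718.
MVD: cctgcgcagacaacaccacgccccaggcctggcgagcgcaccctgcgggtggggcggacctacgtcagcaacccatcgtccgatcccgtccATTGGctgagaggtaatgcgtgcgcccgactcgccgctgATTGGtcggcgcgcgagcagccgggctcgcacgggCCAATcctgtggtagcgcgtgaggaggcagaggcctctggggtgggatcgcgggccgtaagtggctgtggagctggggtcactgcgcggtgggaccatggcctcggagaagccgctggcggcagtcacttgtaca
MSMO1: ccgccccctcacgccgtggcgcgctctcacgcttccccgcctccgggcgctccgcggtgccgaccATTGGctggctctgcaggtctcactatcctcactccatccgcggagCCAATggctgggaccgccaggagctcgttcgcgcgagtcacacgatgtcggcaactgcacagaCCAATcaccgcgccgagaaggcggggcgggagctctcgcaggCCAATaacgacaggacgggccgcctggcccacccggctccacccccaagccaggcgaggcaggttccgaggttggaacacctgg
CCAAT, searched on both strands, was found in 14 of 17 promoters of tested sterol genes (82.4%), against 37.5% of 8733 promoters of all tested genes. The sterol element TCACNCCAC was found in 1 of the 17, against 1.12% of promoters of tested genes.

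Of 25 sterol genes on the list, 19 were tested, 8 were called higher with AMP-18 and none lower, at a background of 0.817% of genes called higher. All 19 had a positive log2 fold change, against 43.1% of all genes tested, and the median was 0.24 against -0.02 over all genes. For 12 of the 19 the AMP-18 arrays lay above every untreated array, which was so for 7.07% of all genes. MVD, which decarboxylates diphosphomevalonate, read 9.67, 9.45 and 9.39 on the AMP-18 arrays, against 8.84, 8.88 and 9.08 on the untreated arrays. The groups did not overlap, and MVD had the largest change of the list, 0.57 (standard error 0.11, adjusted p = 0.00666). IDI1, which makes dimethylallyl diphosphate, read 9.76, 9.71 and 9.76 with AMP-18, against 9.32, 9.34 and 9.38 without. Its 3 replicates lay close together in each group, and the change was 0.40 (standard error 0.07, adjusted p = 0.00251). MSMO1, a sterol demethylase, read 11.02, 10.95 and 11.08 with AMP-18, against 10.61, 10.72 and 10.70 without, a change of 0.34 (adjusted p = 0.00165). A second probe of MSMO1 gave 0.51 (adjusted p = 0.0623) and another 0.17 (0.397).

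The later steps of the route moved the same way. CYP51A1, the lanosterol demethylase, was higher by 0.40 (adjusted p = 0.0393) and TM7SF2, a sterol reductase, by 0.38 (0.0124). DHCR7, which carries out the last reduction to cholesterol, read 11.09, 10.97 and 11.04 with AMP-18, against 10.66, 10.69 and 10.80 without (0.32, adjusted p = 0.0183). EBP, a sterol isomerase, was higher by 0.26 (0.0125) and SQLE, the squalene epoxidase, by 0.18 (0.0471), with 0.30 (0.0581) at a second SQLE probe. MVD, IDI1 and MSMO1 were called with each array left out in turn, whereas CYP51A1 and SQLE were lost in 5 of 6 such fits and DHCR7 in 4. Of the uncalled members, LSS stood at 0.30 (adjusted p = 0.0632), HMGCS1, which makes HMG-CoA, 0.20 (0.0693), and the feedback regulator INSIG1 0.13 (0.527). SREBF2, the gene of the factor itself, read 5.16, 4.68 and 4.91 with AMP-18, against 4.69, 4.91 and 4.92 without, so that its groups overlapped (0.07, adjusted p = 0.881).

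Acetyl-CoA for these routes comes from citrate through ACLY and from acetate through ACSS2. ACLY, the ATP citrate lyase, read 12.01, 12.02 and 12.01 on the AMP-18 arrays, against 11.67, 11.61 and 11.61 on the untreated arrays. It had the lowest adjusted p of all genes called higher (0.38, standard error 0.05, adjusted p = 2.3e-05), and a second ACLY probe gave 0.35 (0.071). ACSS2, the cytosolic acetyl-CoA synthetase, read 11.72, 11.69 and 11.59 with AMP-18, against 11.27, 11.21 and 11.30 without. Its change was 0.41 (adjusted p = 0.000213), and the other ACSS2 probes gave 0.58 (0.00666) and 0.38 (0.00103). Beyond these, the fatty acid list was mixed. Of its 20 tested genes 3 were called higher (background 0.817%) and none lower, with a median of 0.08. The remaining called gene was the elongase ELOVL5 (0.34, adjusted p = 0.0403), a call lost in 4 of 6 fits with 1 array left out. FASN, the fatty acid synthase, read 12.30, 12.30 and 12.44 with AMP-18, against 12.10, 11.98 and 12.19 without, which did not pass (0.26, adjusted p = 0.0685). The desaturases SCD and FADS1 had log2 fold changes of 0.04 and 0.06, and SREBF1 one of -0.19 (0.171). On the list for fatty acid oxidation, 2 of 19 tested genes were called lower, against 1.61% of all genes. They were HADH, a mitochondrial dehydrogenase (-0.25, adjusted p = 0.0338), and ANGPTL4 (-0.34, 0.0296), whose second probe gave -0.09. ANGPTL4 is a secreted lipase inhibitor and not itself an oxidation enzyme. Both calls were lost in 4 of 6 fits with 1 array left out.

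**Figure D2:**
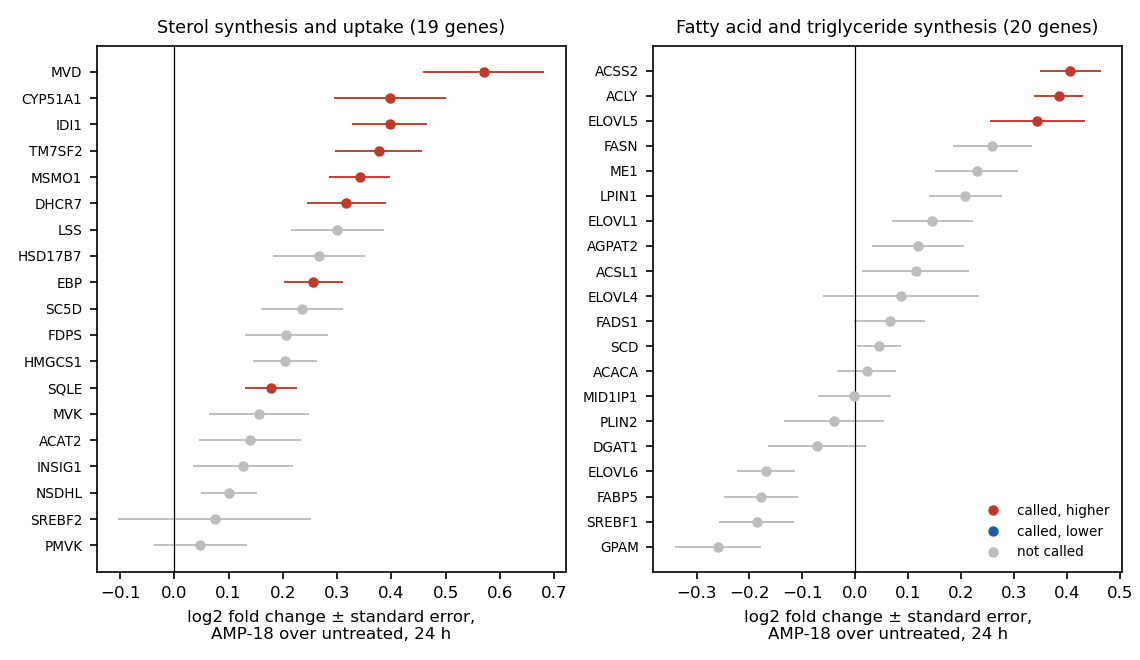
Log2 fold change with standard error (AMP-18 over untreated, HaCaT 24 h) of the 19 tested sterol genes (left) and the 20 tested fatty acid and triglyceride genes (right), with called genes in red and uncalled ones in grey. All sterol genes lie right of 0, with MVD at the top at 0.57, while the fatty acid genes spread between -0.26 for GPAM and 0.41 for ACSS2.

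DNA replication starts where the MCM helicase is loaded and then joined by CDC45 and the GINS complex, after which primase and the polymerases copy the strands. Many of these genes are known targets of E2F factors at the entry into S phase. Promoters of 2 helicase subunits are shown for their matches to the E2F letters TTTNNCGC, which are in capitals on either strand. MCM6 lies on the minus strand at chr2:135876394-135876693 and MCM3 on the minus strand at chr6:52284693-52284992, both with the same window and source as above.
MCM6: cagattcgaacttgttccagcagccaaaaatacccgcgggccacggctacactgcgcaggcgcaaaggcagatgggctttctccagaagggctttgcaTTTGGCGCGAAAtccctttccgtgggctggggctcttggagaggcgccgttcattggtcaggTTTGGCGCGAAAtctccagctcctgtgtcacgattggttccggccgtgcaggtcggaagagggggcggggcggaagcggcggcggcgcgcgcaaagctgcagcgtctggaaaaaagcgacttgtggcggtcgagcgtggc
MCM3: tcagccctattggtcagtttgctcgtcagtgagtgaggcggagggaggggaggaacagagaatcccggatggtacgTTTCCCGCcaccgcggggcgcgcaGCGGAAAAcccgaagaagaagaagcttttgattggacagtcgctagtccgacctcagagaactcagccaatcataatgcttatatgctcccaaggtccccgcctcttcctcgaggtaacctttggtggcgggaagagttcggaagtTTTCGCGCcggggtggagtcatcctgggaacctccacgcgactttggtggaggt
In MCM6, matches on the plus and minus strands overlap each other at both places. These letters were found in 21 of 39 promoters of tested replication genes (53.8%), against 10.8% of promoters of all tested genes.

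Of 44 replication genes tested, 15 were called lower with AMP-18 and none higher, at a background of 1.61% of genes called lower, and the median was -0.20. MCM6, a subunit of the helicase, read 8.69, 8.74 and 8.85 on the AMP-18 arrays, against 9.33, 9.27 and 9.21 on the untreated arrays. That was a 1.42-fold lower level (-0.51, standard error 0.05, adjusted p = 9.3e-07), and it was called in every fit with 1 array left out and with the 6 arrays alone. MCM3 and MCM4, of the same helicase, were lower by smaller amounts (-0.26, adjusted p = 0.00666, and -0.27, 0.012), and a second probe of each gave -0.26 (0.103) and -0.18 (0.288). MCM2, MCM5 and MCM7 had log2 fold changes of -0.20, -0.19 and -0.14 and did not pass. Their AMP-18 arrays lay below all untreated ones, which was so for 11.1% of all genes. CDC45 read 8.35, 8.36 and 8.33 with AMP-18, against 8.73, 8.80 and 8.62 without (-0.37, adjusted p = 0.000198). GINS2 read 8.57, 8.56 and 8.55 with AMP-18, against 8.80, 8.98 and 8.97 without (-0.36, adjusted p = 0.00165). In both of these genes the AMP-18 replicates were closer together than the untreated ones. MCM10, which helps to start the helicase, was lower by -0.39 at its brightest probe (adjusted p = 0.0128) and by -0.58 at a second (0.00545).

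Some genes of polymerases and nucleotide supply were also called lower, while POLD1, POLA1, RRM1, RRM2 and TK1 were not called. POLE2, a subunit of the leading strand polymerase, read 7.22, 7.34 and 7.14 with AMP-18, against 7.66, 7.69 and 7.58 without (-0.41, adjusted p = 0.00285). POLA2 and PRIM1, of the priming complex, were lower by -0.36 (0.00142) and -0.22 (0.0451), and the clamp loader RFC5 and the single-strand binding protein RPA2 by -0.21 (0.0263) and -0.27 (0.0263). TYMS, which makes thymidylate, was lower by -0.31 (0.0067) and DUT, which removes dUTP, by -0.25 (0.0471). DUT had 2 other probes, at -0.39 (0.00257) and 0.08 (0.741). CHAF1A and CHAF1B, which place histones on new DNA, were lower by -0.45 (0.0238) and -0.34 (0.0067). DUT was lost in 5 of 6 fits with 1 array left out, CHAF1A, PRIM1 and RPA2 in 4 and RFC5 in 3. PCNA, the sliding clamp, was not called (-0.13, 0.198), and the 5 genes with a positive log2 fold change were PRIM2, POLE, POLD2, E2F1 and ORC6, between 0.04 and 0.21. The following single genes outside the list were picked because they were called, and their number says nothing of a group. BRCA1 read 6.81, 6.59 and 6.69 with AMP-18, against 7.11, 7.06 and 7.05 without (-0.38, adjusted p = 0.013), and its second probe gave -0.31 (0.114). TRIP13, DTL, CDCA7, BARD1, CDC7, RAD51AP1 and EXO1 were lower by between -0.42 and -0.29, and HELLS, SUV39H1 and the maintenance DNA methyltransferase DNMT1 by -0.32, -0.29 and -0.20. Of these, DTL, CDC7 and HELLS were lost in 4 of 6 fits with 1 array left out and BARD1, EXO1, RAD51AP1 and DNMT1 in 3.

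CDKN1A, the p21 inhibitor of cyclin-dependent kinases, was higher. It read 10.79, 10.69 and 10.86 on the AMP-18 arrays, against 10.43, 10.41 and 10.54 on the untreated arrays, with no overlap (0.32, standard error 0.07, adjusted p = 0.0145), and the call was lost in 3 of 6 fits with 1 array left out. It was the 1 called gene among 18 tested p53 targets (background 2.42%), of which TP53INP1 had 0.34 and RRM2B 0.25 without passing. The list of mitosis genes had 1 called gene of 48 tested, against 2.42% of all genes, and a median of -0.04. The called gene was STMN1, a protein that destabilizes microtubules (-0.30, adjusted p = 0.0159, with -0.05 at a second probe). MKI67, the proliferation antigen, read 6.27, 6.25 and 6.30 with AMP-18, against 6.26, 5.86 and 6.18 without, and was not called (0.17, adjusted p = 0.38).

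Amino acid synthesis and the loading of tRNAs are known to be raised together by ATF4 when amino acids run short, through elements with the letters TGATGNAA. The promoters of ASNS and IARS1 are shown because each carries 1 such match, in capitals (TTGCATCA in IARS1 is on the opposite strand). ASNS lies on the minus strand at chr7:97872359-97872658 and IARS1 on the minus strand at chr9:92293648-92293947.
ASNS: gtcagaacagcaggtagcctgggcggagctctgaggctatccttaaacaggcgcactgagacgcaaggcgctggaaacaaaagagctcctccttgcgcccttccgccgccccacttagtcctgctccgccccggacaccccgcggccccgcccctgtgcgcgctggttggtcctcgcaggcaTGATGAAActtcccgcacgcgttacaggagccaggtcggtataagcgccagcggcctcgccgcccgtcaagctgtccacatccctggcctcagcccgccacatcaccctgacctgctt
IARS1: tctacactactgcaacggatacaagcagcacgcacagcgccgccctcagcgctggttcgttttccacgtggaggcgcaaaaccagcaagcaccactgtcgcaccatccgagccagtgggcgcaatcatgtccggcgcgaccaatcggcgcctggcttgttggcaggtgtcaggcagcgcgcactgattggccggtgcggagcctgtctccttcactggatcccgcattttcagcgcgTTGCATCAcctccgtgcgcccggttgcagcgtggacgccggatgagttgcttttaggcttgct
The match was found in 8 of 28 promoters of the tested genes of this list (28.6%), against 1.77% of promoters of all tested genes.

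Of 35 tested genes of this list, 9 were called lower and none higher, at a background of 1.61% of genes called lower. The list median was -0.10. ASNS, the asparagine synthetase, read 7.57, 7.57 and 7.41 on the AMP-18 arrays, against 8.11, 8.19 and 8.26 on the untreated arrays. It had the lowest adjusted p of all genes (-0.67, standard error 0.06, adjusted p = 2.39e-07, a 1.59-fold lower level), and its second probe was also called (-0.37, 0.0143). MTHFD2, a mitochondrial enzyme of folate metabolism, read 5.99, 6.08 and 5.75 with AMP-18, against 6.42, 6.48 and 6.38 without (-0.48, adjusted p = 0.00216). PSAT1, of serine synthesis, read 8.85, 8.92 and 9.10 with AMP-18, against 9.39, 9.38 and 9.21 without (-0.37, adjusted p = 0.00168), with no overlap. These 3 genes were called with each array left out in turn. The synthetases IARS1, EPRS1, VARS1, GARS1, AARS1 and YARS1, which load isoleucine, glutamate and proline, valine, glycine, alanine and tyrosine, were lower by between -0.28 and -0.22. Of these, VARS1 was lost in 5 and GARS1 in 4 of 6 fits with 1 array left out. LARS1, TARS1 and WARS1 had log2 fold changes of -0.15 each and did not pass, and HARS1, NARS1 and MARS1 lay between -0.02 and 0.10.

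The stress factors of the same list did not go lower. ATF4 read 11.66, 11.69 and 11.59 with AMP-18, against 11.56, 11.63 and 11.63 without (0.04, adjusted p = 0.769). TRIB3 and DDIT3, targets of ATF4 in stress, had 0.17 (0.126) and 0.18 (0.316). In both genes the AMP-18 arrays lay above the untreated arrays, which was so for 7.07% of all genes. NUPR1 had 0.46 (standard error 0.16, 0.122), and the amino acid carriers SLC7A5 and SLC3A2 had -0.04 and 0.02. Other enzymes of serine, one-carbon and branched-chain amino acid metabolism, named after their values were seen, were lower. CBS, which condenses serine with homocysteine, read 5.83, 5.80 and 5.44 with AMP-18, against 6.06, 6.28 and 6.42 without (-0.56, adjusted p = 0.00168). BCAT1, a branched-chain aminotransferase, read 7.06, 7.13 and 7.07 with AMP-18, against 7.42, 7.50 and 7.45 without (-0.37, 0.00545). SHMT1 and the purine enzyme GART were lower by -0.20 (0.0426) and -0.30 (0.0364), but other probes of both gave values from -0.01 to 0.11 and were not called, and SHMT1 was lost in 6 of 6 fits with 1 array left out.

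**Figure D3:**
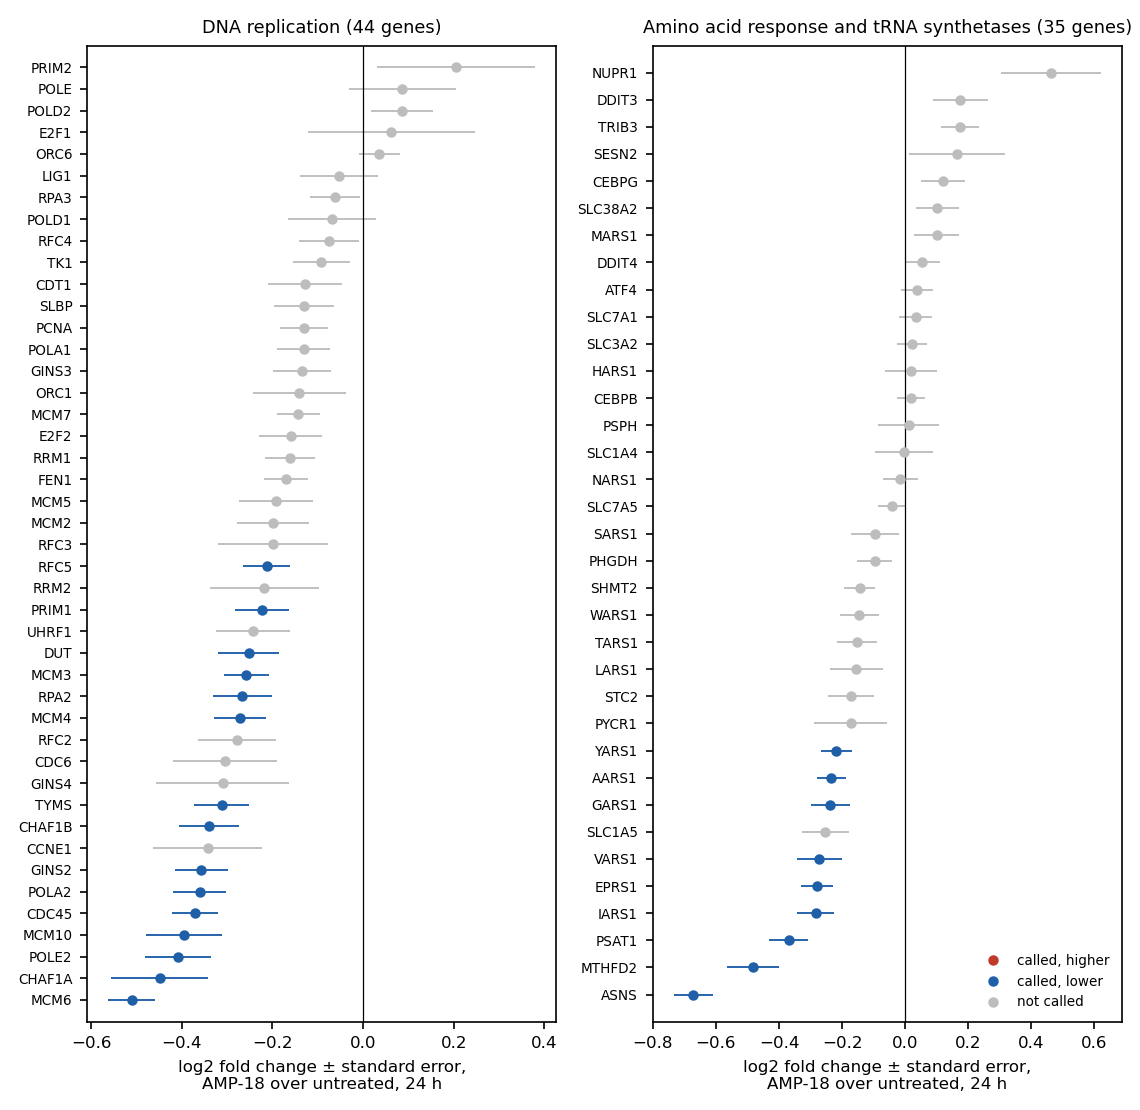
Log2 fold change with standard error (AMP-18 over untreated, HaCaT 24 h) of 44 replication genes (left) and 35 genes of amino acid response and tRNA charging (right), with called genes in blue and uncalled ones in grey. The 15 called replication genes lie between MCM6 at -0.51 and RFC5 at -0.21, and ASNS at -0.67 is the lowest of the right panel, while ATF4, TRIB3 and DDIT3 lie right of 0.

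Of 37 tested genes of MYC targets and ribosome biogenesis, 5 were called lower (background 1.61%) and none higher, with a median of -0.13. These were NOLC1, MRTO4, PA2G4 and BOP1, which act in ribosome assembly or its control (-0.31 to -0.28), and ODC1, the first enzyme of polyamine synthesis (-0.24, adjusted p = 0.0261). Without AMP-18 replicate 3, 1 of the 5 was still called. MYC itself read 8.66, 8.61 and 8.94 with AMP-18, against 8.92, 8.82 and 8.67 without, and the groups overlapped (-0.06, adjusted p = 0.701). Of 67 ribosomal protein genes 1 was called, against 2.42% of all genes, and the median was -0.01. That gene was RPLP2, which was higher by 0.18 (0.0482) and belongs to a family with near-identical copies.

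Chaperone genes were split. HSPA5, the main chaperone of the endoplasmic reticulum, read 7.07, 7.11 and 7.04 with AMP-18, against 7.51, 7.55 and 7.41 without (-0.41, standard error 0.06, adjusted p = 0.000456), and was called with each array left out. CANX, a lectin chaperone, was lower by -0.25 (0.0474), a call that no fit with 1 array left out kept. PDIA6, a disulfide isomerase, was higher by 0.31 (0.0183). These were the 3 called genes among 22 of the unfolded protein response, against 2.42% of all genes called. The list median was -0.06, and XBP1, HSP90B1 and CALR had log2 fold changes of -0.11, -0.06 and -0.04. In the cytosol, DNAJA1 and HSPA8 were lower by -0.26 (0.0139) and -0.18 (0.0263), and in mitochondria HSPA9, named after its values were seen, by -0.27 (0.0067). BNIP3, a mitophagy receptor induced by hypoxia, and ENO1, a glycolytic enzyme, were lower (-0.36, 0.0145, and -0.22, 0.0018). They were the 2 called of 33 hypoxia and glycolysis genes, against 1.61% of all genes called lower. None of 65 respiratory chain genes was called, and their median was -0.02.

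Defence genes gave few calls. MX1, an interferon-induced GTPase that blocks viruses, read 5.18, 5.29 and 5.07 on the AMP-18 arrays, against 5.77, 5.91 and 5.92 on the untreated arrays (-0.69, standard error 0.07, adjusted p = 1.14e-06, a 1.61-fold lower level). IFITM3, which blocks viral entry, was lower by -0.18 (0.023), a call lost in 4 of 6 fits with 1 array left out. These were the 2 called of 41 tested interferon-stimulated genes, against 1.61% of all genes called lower. The list median was -0.07, and ISG15, IFIT1 and OAS1 had -0.04, -0.20 and 0.03. Of 13 S100 genes, which encode calcium-binding proteins of epithelia, 3 were called higher, at a background of 0.817% of genes, and S100A2 was lost in 5 of 6 fits with 1 array left out. S100A9, a subunit of calprotectin, read 6.328, 6.329 and 6.174 with AMP-18, against 5.869, 5.916 and 5.995 without (0.35, adjusted p = 0.00216). S100A3 and S100A2 were higher by 0.37 (0.00763) and 0.25 (0.0491), and S100A8, the partner of S100A9, had 0.05. SAA1, an acute-phase protein, was detected on no AMP-18 array and on all untreated arrays, and was at least 1.07-fold lower. It passed the detection filter through the untreated arrays alone, and its call was lost in 4 of 6 fits with 1 array left out. Of 18 NF-kB feedback and cytokine genes and of 7 chemokines, none was called.

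Several other lists held a few called genes each. FST, which binds and blocks activin, read 9.47, 9.44 and 9.35 with AMP-18, against 9.90, 9.87 and 9.88 without (-0.46, standard error 0.05, adjusted p = 9.3e-07), and a second probe gave -0.26 (0.0409). IGFBP3, which binds insulin-like growth factors, was lower by -0.24 (0.0134) with -0.26 (0.0353) at a second probe. THBS1 and SERPINE2, secreted proteins of matrix and protease control, were lower by -0.25 (0.0434) and -0.39 (0.0125), and HES5, a repressor induced by Notch, by -0.46 (0.0096). THBS1 was lost in 5 and SERPINE2 in 2 of 6 fits with 1 array left out. TNFSF9, the ligand of the T cell receptor 4-1BB, read 8.27, 8.33 and 8.54 with AMP-18, against 7.76, 7.82 and 7.98 without (0.53, adjusted p = 0.0131). GJB2, the connexin 26 of keratinocyte gap junctions, named after its values were seen, read 8.85, 9.04 and 9.02 with AMP-18, against 9.36, 9.35 and 9.26 without (-0.36, adjusted p = 0.000213). The mesenchymal cadherin CDH2 and the actin-binding protein TAGLN were lower by -0.27 (0.0145) and -0.38 (0.0397). TAGLN was lost in 5 and CDH2 in 2 of 6 fits with 1 array left out. Tropomyosin TPM2 was higher by 0.40 (0.0018), with -0.09 (0.729) at a second TPM2 probe.

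Genes of keratinocyte identity showed no called change in differentiation and few elsewhere. None of 35 differentiation genes and none of 19 genes of desmosomes and adherens junctions was called, with medians of -0.004 and 0.03. KRT5 and KRT14, the basal keratins, had log2 fold changes of 0.07 and -0.05, KRT1 and KRT10, of suprabasal cells, -0.04 and 0.05, and the envelope protein IVL 0.05, with adjusted p between 0.574 and 0.94. The standard errors of these 5 were between 0.06 and 0.15. Of 21 basal keratinocyte genes 14.3% were called, against 2.42% of all genes. TRIM29 and S100A2 were higher (0.31, adjusted p = 0.0442, and 0.25) and IGFBP3 lower. The TRIM29 call was lost in 4 of 6 fits with 1 array left out, and a second TRIM29 probe gave 0.11 (0.469). AMP-18 has been studied for its action on tight junctions, and of 22 tested genes of tight junctions and polarity 1 was called, the scaffold PALS1 (-0.25, adjusted p = 0.048), at a background of 1.61% of genes called lower. That call was lost in 5 of 6 fits with 1 array left out and with the replicate block (adjusted p = 0.127). CLDN1 had -0.08 (0.475) and TJP1 0.02 (0.929). OCLN was not detected on all arrays of either group, and F11R was not analysed here.

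AMP-18 is encoded by GKN1, whose probe was detected on 0 of 3 AMP-18 arrays and 1 of 3 untreated arrays and was not tested. CCKBR, the gastrin receptor, was detected on no array of either group. The log2 fold change of EGFR was -0.03 (adjusted p = 0.818), that of BCL2L1, which blocks apoptosis, 0.07 (0.545), and that of the receptor TNFRSF1A 0.05 (0.757). CXCL8, a neutrophil chemokine, read 5.19, 5.51 and 5.42 with AMP-18, against 5.38, 5.75 and 5.37 without (-0.13, 0.463), and the peptide DEFB1 had -0.12 (0.411). None of 19 death receptor and caspase genes was called.

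Of 26 tested genes of lysosomes and autophagy, 1 was called higher (background 0.817%) and 1 lower (background 1.61%). CTSA, a lysosomal carboxypeptidase, was higher by 0.35 (adjusted p = 0.0179), while CTSB, a lysosomal cysteine protease, was lower by -0.25 (0.0178) and by -0.28 (0.0229) at a second probe. The other genes of this paragraph were picked after their values were seen and stand for no list. LAMTOR4, a subunit of the Ragulator complex on lysosomes, read 10.46, 10.41 and 10.56 with AMP-18, against 10.16, 10.18 and 10.07 without (0.34, 0.00257). SCPEP1, ATP6AP1, GPNMB and GRN were higher by 0.24, 0.22, 0.22 and 0.30, though a second GRN probe gave -0.03 (0.852). The kinases CLK1 and CLK3 and the proteins SRSF5, ARGLU1 and RSRP1, which act in splicing or carry the sequence features of splicing factors, were higher by 0.24, 0.35, 0.18, 0.32 and 0.43, and SRSF7 was lower by -0.31. ARGLU1 was called with each array left out, CLK1 and GPNMB were lost in 6 of 6 such fits, and other probes of CLK1 (0.25, 0.294) and RSRP1 (0.17, 0.447) were not called.

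The genes with the largest called increases also included the zinc finger genes ZNF37A and ZNF493 (0.59 and 0.56), the long noncoding RNA LINC01089 (0.52), CYTH2, an exchange factor of ARF proteins (0.49), and YWHAE, a 14-3-3 protein (0.45). Other probes of LINC01089, CYTH2 and YWHAE gave between 0.04 and 0.20 and were not called. A probe assigned to MIR205, the gene of an epithelial miRNA, read 7.85, 7.83 and 7.79 with AMP-18, against 7.31, 7.46 and 7.30 without (0.47, adjusted p = 0.00103), and it reports a transcript of that locus, not the mature miRNA. NMRAL2P, GSDMB, NPIPB5, PHF1 and TMEM120A lay between 0.42 and 0.45, of which NPIPB5 belongs to a family of near-identical copies and GSDMB had 2 other probes at 0.06 and 0.14 that were not called.

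Most of the largest decreases were of dim probes. CD1D, which presents lipid antigens, read 4.79, 4.09 and 4.07 with AMP-18, against 5.37, 4.96 and 5.12 without, and 1 AMP-18 array detected it. ABHD11, a mitochondrial hydrolase, read 4.18, 4.42 and 4.29 with AMP-18, against 4.95, 5.12 and 5.09 without, and was likewise detected on 1 AMP-18 array. Both passed the detection filter through the untreated arrays alone, and their AMP-18 means of 4.32 and 4.30 lay at the level of the dimmest detected probes, so that no fold change is given. LINC01235, ACSS3, SLC26A8, CIMIP2C and ASIC1 were detected on no AMP-18 array and on all untreated arrays. They too passed the filter through the untreated arrays alone, and they have a bound in place of a fold change. In that order they were at least 1.15-fold, 1.17-fold, 1.15-fold, 1.04-fold and 1.27-fold lower. SLC26A8 was lost in 5 of 6 fits with 1 array left out, ACSS3, CIMIP2C and ASIC1 in 4, and LINC01235 in 2. ZNF275 and SMCO4 were lower by -0.56 and -0.49. RDM1 and PARVB were also called lower, but 1 AMP-18 array detected each. The last called members of the lists were few, and the early response genes IER3 and BHLHE40 were higher (0.26 each), and SEMA4D, PLOD2, AXL, GCNT1 and the proteasome subunit PSMB3 were lower by between -0.34 and -0.20. PLOD2 and PSMB3 were lost in 5 of 6 fits with 1 array left out, IER3 and SEMA4D in 4, and BHLHE40, AXL and GCNT1 in 3. Other PLOD2 probes gave -0.22 and -0.04 and were not called. H4C3, a histone gene with near-identical copies, was lower by -0.42.

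For some genes picked from those described above, the levels in HaCaT cells at 2 h are given beside those at 24 h. MVD averaged 9.50 ± 0.15 with AMP-18 and 8.93 ± 0.13 without at 24 h, and 5.94 ± 0.24 with AMP-18 and 6.12 ± 0.03 without at 2 h (SD, n = 3 each). ACSS2 averaged 11.67 ± 0.06 with AMP-18 and 11.26 ± 0.04 without at 24 h, against 7.90 ± 0.07 and 7.90 ± 0.04 at 2 h. MCM6 averaged 8.76 ± 0.08 with AMP-18 and 9.27 ± 0.06 without at 24 h, against 10.67 ± 0.03 and 10.69 ± 0.04 at 2 h. In each of these genes the AMP-18 cells of 24 h lay farther from the 2 h level than the untreated cells of 24 h did. The same held for ASNS, whose means were 7.52 with AMP-18 and 8.19 without at 24 h and 10.04 and 10.02 at 2 h, for CDKN1A (10.78 and 10.46 at 24 h, 8.39 and 8.27 at 2 h) and for FST (9.42 and 9.88 at 24 h, 12.47 and 12.65 at 2 h). MX1 went the other way, with 5.18 with AMP-18 and 5.87 without at 24 h and 4.68 and 4.86 at 2 h, and S100A9 as well, with 6.28 and 5.93 at 24 h and 7.77 and 7.88 at 2 h.

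For whole lists the values side by side were as follows. The sterol genes had a median of 0.24 for AMP-18 over untreated at 24 h and of 1.96 for untreated cells at 24 h over 2 h. For replication genes these medians were -0.20 and -0.85, and for the amino acid list -0.10 and -0.60. For MYC targets and ribosome biogenesis they were -0.13 and -1.53, and for mitosis -0.04 and 0.03. Over all genes tested they were -0.02 and 0.05. The comparisons share the untreated 24 h arrays, so their values are not independent, and the change over time in untreated cells was not tested here. Whether the 2 h and 24 h samples were handled together is not given in the sources used here, so time and handling cannot be told apart.

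**Figure D4:**
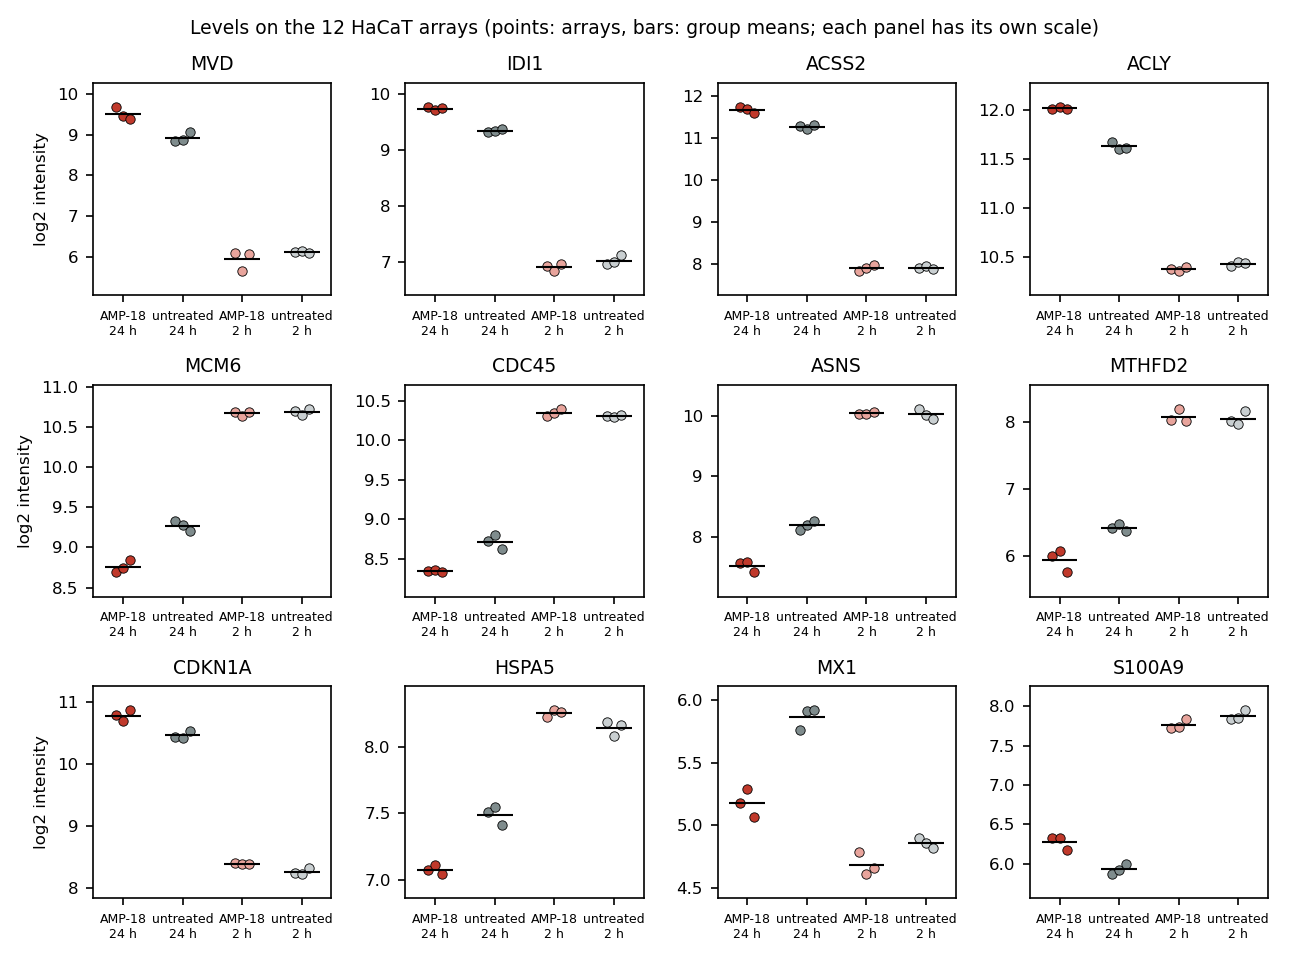
Log2 intensity of 12 genes on the 12 HaCaT arrays, in the order AMP-18 24 h, untreated 24 h, AMP-18 2 h and untreated 2 h, with points for arrays and bars for group means (each panel has its own scale). MVD, IDI1, ACSS2, ACLY and CDKN1A are highest and MCM6, CDC45, ASNS, MTHFD2 and HSPA5 lowest in the AMP-18 cells of 24 h, whereas MX1 and S100A9 lie between the untreated 24 h and the 2 h levels.

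The effect of AMP-18 at 24 h was then set against its effect in HaCaT cells at 2 h. At 2 h, 2 of the 18219 probes were called, and neither was among the 379. The difference between the effects passed the test for 38 probes, 22 more positive and 16 more negative at 24 h. Among genes it passed for 30 (0.278%), of which 28 were also called at 24 h. The difference contains the 24 h effect, so this overlap follows in part from the test. MVD had a log2 fold change of 0.57 at 24 h and -0.18 at 2 h, a difference of 0.75 (standard error 0.16, adjusted p = 0.036). MSMO1 had 0.34 at 24 h and -0.22 at 2 h (difference 0.56, adjusted p = 0.00114), and IDI1, DHCR7, SQLE, ACLY and ACSS2 also differed, with 2 h effects between -0.20 and -0.00. Of the genes lower at 24 h, ASNS (difference -0.69, adjusted p = 0.000228), MCM6 (-0.49, 0.00179), HSPA5 (-0.52, 0.006), CDC45 (-0.41, 0.0125), GINS2 (-0.42, 0.0246) and PSAT1 (-0.45, 0.0246) differed from their 2 h effects, which lay between -0.02 and 0.11. The count of 38 was 4 with the replicate number as a block, 11 without the intensity trend and 181 with array weights.

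SCC-61 cells, which came from a head and neck cancer, were treated in the same way for 24 h. There 80 of the 18219 probes were called, and 3 of them were also called in HaCaT cells. The difference between the lines passed for 43 probes, 14 more positive and 29 more negative in HaCaT. Among genes it passed for 32 (0.297%), of which 24 were also called in HaCaT, an overlap that again follows in part from the test. MX1 had a log2 fold change of -0.69 in HaCaT and 0.35 in SCC-61 (difference -1.03, standard error 0.10, adjusted p = 1.19e-06), and its untreated level was 5.87 in HaCaT and 11.43 in SCC-61. ASNS had -0.67 in HaCaT and 0.02 in SCC-61 (difference -0.69, adjusted p = 0.000103), MCM6 -0.51 and -0.02 (-0.49, 0.00196) and HSPA5 -0.41 and 0.10 (-0.51, 0.00702). IDI1 was the 1 gene of the sterol list that differed, with 0.40 in HaCaT and -0.18 in SCC-61 (0.58, 0.00702). For MVD, at 0.57 in HaCaT and 0.04 in SCC-61, the difference of 0.53 did not pass (standard error 0.16, adjusted p = 0.123). The count of 43 was 2 with the 12 arrays of 24 h alone and 2 with the replicate block.

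**Figure D5:**
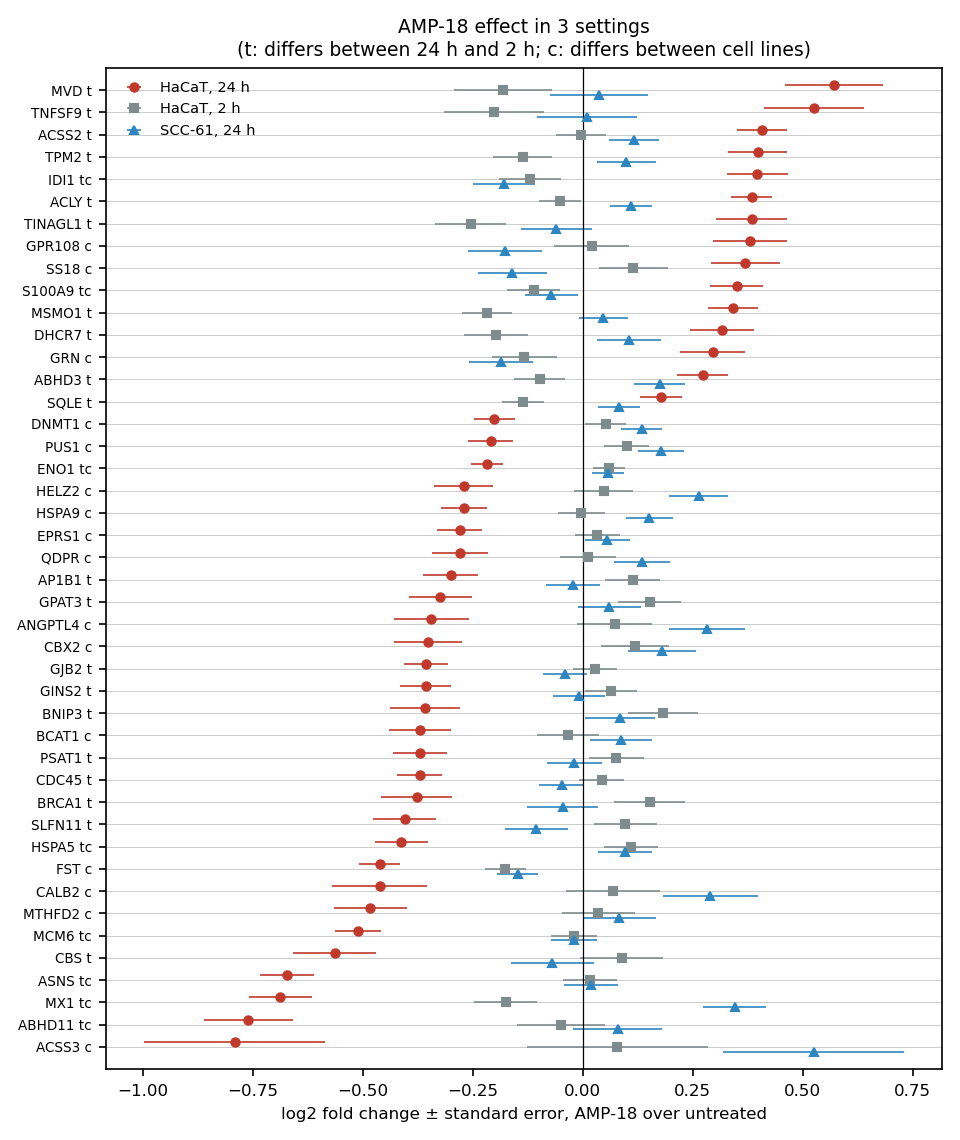
Log2 fold change with standard error (AMP-18 over untreated) in HaCaT at 24 h (red), HaCaT at 2 h (grey) and SCC-61 at 24 h (blue) for the 44 genes called in HaCaT at 24 h whose effect differed between times (28, marked t) or between cell lines (24, marked c). In HaCaT at 2 h and SCC-61 at 24 h, the points lie within 0.3 of 0 except those of MX1 and ACSS3 in SCC-61. The genes were chosen by these same tests, so small values in the other settings follow in part from the choice.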

How the data were processed

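HaCaT and SCC-61 cells were profiled on Illumina HumanHT-12 v4 bead arrays by the study. The deposited table held log2 intensity values and a detection p-value per probe for each of the 24 arrays, made by the authors in GenomeStudio 2011.1 (per the submitters' processing notes); the normalization is not given in the sources used here, and array medians were nearly equal. Members were the probes with a deposited detection p-value under 0.05 on all 3 arrays of either HaCaT group of 24 h. One mean per group (8 groups) was fitted with limma 3.58.1 in R 4.3.3 (eBayes with an intensity trend, 16 residual degrees of freedom), two-sided, with Benjamini-Hochberg adjustment over the 18219 probes and a threshold of 0.05. Differences between times and between lines were interaction contrasts of the same fit, whose effects share no arrays. The scripts were tested on simulated data. Genes were named by a rule: among called genes without overlap, the 15 largest increases and the 15 largest decreases, up to 4 called genes of each of 46 lists, and a fixed set. Other genes are marked as chosen after their values were seen, and uncalled or further members of the lists are named as values. Members and lists were chosen with earlier results of these data known. A gene with all arrays of a group undetected has a bound, the mean of its detected group over the lowest detected signal of the other group. The number of arrays limits the precision. Promoters came from RefSeq (GRCh38.p14), where 8733 of 10776 tested genes had a match. Alternatives were other filters, normalizations, array sets, variance models, array weights, a replicate block and leaving out each array.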

Additional observations from a re-analysis of the deposited data

Results flagged for a closer look

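Named genes were singled out where the AMP-18 effect in HaCaT cells at 24 h differed from that at 2 h or from that in SCC-61 cells at 24 h by the interaction test in limma (adjusted p under 0.05 over 18219 probes). Groups of 3 arrays are too small for a check of single outlying arrays.

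Between times, the difference (24 h minus 2 h, log2) was positive for MVD (0.75), TNFSF9 (0.73), MSMO1 (0.56), TPM2 (0.53), IDI1 (0.52), DHCR7 (0.51), S100A9 (0.46), ACLY (0.44), ACSS2 (0.41) and SQLE (0.31). It was negative for ABHD11 (-0.71), ASNS (-0.69), CBS (-0.65), BNIP3 (-0.54), BRCA1 (-0.53), HSPA5 (-0.52), MX1 (-0.51), MCM6 (-0.49), PSAT1 (-0.45), GINS2 (-0.42), CDC45 (-0.41), GJB2 (-0.38) and ENO1 (-0.28).

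Between cell lines, the difference (HaCaT minus SCC-61, log2) was positive for IDI1 (0.58), GRN (0.48) and S100A9 (0.42). It was negative for ACSS3 (-1.31), MX1 (-1.03), ABHD11 (-0.84), ASNS (-0.69), ANGPTL4 (-0.63), MTHFD2 (-0.57), HELZ2 (-0.53), HSPA5 (-0.51), MCM6 (-0.49), BCAT1 (-0.46), HSPA9 (-0.42), EPRS1 (-0.34), DNMT1 (-0.33), FST (-0.31) and ENO1 (-0.27). ACSS3 was detected on 0 of 3 AMP-18 arrays of HaCaT and ABHD11 on 1, and both entered through the untreated arrays alone, so their differences rest on readings near background and are not sizes of effect.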

How the results depend on the processing

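The counts of called probes depended on how the spread was estimated. For AMP-18 against untreated HaCaT at 24 h (379 probes, 150 higher and 229 lower), 206 were called with no filter on dim probes (91 and 115), 11 with the 6 arrays compared alone (8 and 3), 232 without the trend (88 and 144) and 169 with the replicate number as a block (80 and 89), and 146 were lower with the 12 HaCaT arrays. A t-test with equal variances on the 6 arrays called 0 after Benjamini-Hochberg adjustment (0 higher, 0 lower) and 1927 at an unadjusted p under 0.05. The study did not rank its array genes by this test. Leaving out 1 array gave 105 to 561 (37 to 229 higher, 68 to 332 lower). For 24 h minus 2 h (38, 22 more positive and 16 more negative), there were 24 with no filter (13 more positive), 17 with the 12 HaCaT arrays (10 and 7), 11 without the trend (5 and 6), 181 with array weights (84 and 97), 4 with the replicate block (3 and 1) and 6 to 127 with 1 array left out (2 to 49 and 4 to 78). For HaCaT minus SCC-61 (43, 14 and 29), there were 10 with no filter (3 and 7), 79 with the stricter filter (31 and 48), 2 with the arrays compared alone (0 and 2), 16 without the trend (3 and 13), 266 with array weights (109 and 157), 2 with the replicate block (0 and 2) and 10 to 252 with 1 array left out (2 to 81 and 8 to 171). In the fit with array weights, a lower weight marks a noisier array. The weights were 0.49, 0.934 and 0.577 for the AMP-18 arrays of HaCaT at 24 h. They were 1.225, 1.794 and 0.425 for the untreated arrays, and between 0.329 and 2.409 in the other groups. The cause of these shifts was not tested. Samples of the same number did not deviate together (correlations at 24 h in HaCaT of -0.20, 0.07 and -0.22). So few correlations cannot decide whether samples of the same number were paired in the design.

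Of 132 named called genes, none changed sign under any alternative, but most alternatives could not have reversed a sign. Other filters, variance models and array sets leave the means of the compared groups as they are. Groups that do not overlap, as in 369 of 379 called probes, keep their sign with 1 array left out or with array weights. The kept signs are therefore no measure of stability. All 132 genes kept their call under quantile normalization and median scaling, and 124 did so under cyclic loess. The call was kept by 89 with the 12 HaCaT arrays, 76 with the replicate block, 7 with the 6 arrays and 48 to 114 with 1 array left out. Small uncalled effects changed sign: KRT1 to 0.0096 without untreated replicate 3 and 0.0355 without AMP-18 replicate 3 (range with 1 array left out -0.1404 to 0.0355), IVL to -0.0016 without untreated replicate 1 (-0.0016 to 0.0826), EGFR to 0.0052 without untreated replicate 1 (-0.0717 to 0.0052), TNFRSF1A to -0.0006 without untreated replicate 2 (-0.0006 to 0.0775), and TJP1 to -0.0134 with array weights, -0.0137 without untreated replicate 3 and -0.0056 without AMP-18 replicate 1 (-0.0137 to 0.0448).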
